A study of Mus musculus with 28 samples.

Results

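A set of 10 transcripts, selected on their higher signal in T cells of old than of young mice before stimulation and at each later time, was followed across 28 one-colour Agilent arrays. The 10 genes were Penk, Pros1, Esm1, Serpina3g, Ryk, Rnf43, Ripk4, Sntb2, Mtus1 and Hoxc9, out of 27670 genes with a probe on the array. They were found by the gene name or an older alias of each probe (Penk was listed under the alias Penk1). They had 18 probes in all. All 10 passed the filter of being well above background on at least 3 arrays, as did 19481 genes in all. The direction of the age difference chose these genes. Old minus young values are therefore given as a description, without a test, and support nothing. Tests are given for what the choice did not use, which is the comparison of CD8 with CD4 cells and the change with stimulation.

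The CD4 and CD8 T cells came from BALB/c mice, 4 months of age in the young and 20 months in the old groups. They were sorted and studied unstimulated (0 h) or after 4, 12, 24 or 72 h on plate-bound anti-CD3/CD28. These antibodies engage the antigen receptor and its costimulatory receptor. Each age and cell type had 3 arrays at 0 h and 1 array at each later time, which makes 20 groups. All groups share the strain, and the RNA for each time point combined 4 sortings, so the spread between arrays is one of pools and may be technical. The labels conflict on the gate: sample titles and the growth protocol give CD62Llo/CD44hi, whereas descriptions and the series design give naive CD62Lhi/CD44lo cells. In bulk RNA a change in the number of cells that express a gene and a change in the RNA per cell cannot be told apart.

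These genes have little in common by function. Penk encodes the precursor of the enkephalins, opioid peptides that activated helper T cells can release. Pros1 encodes protein S, an anticoagulant that is also a ligand of the TAM receptor kinases (Tyro3, Axl, Mertk), through which it restrains antigen presenting cells. Esm1 (endocan) is a secreted proteoglycan best known from endothelium that binds the leukocyte integrin LFA-1. Serpina3g (Spi2A) is an intracellular inhibitor of cathepsins and a known NF-kB target in lymphocytes. Ryk and Rnf43 act on Wnt signalling, Ryk as an atypical Wnt receptor and Rnf43 as a ubiquitin ligase that removes Frizzled receptors from the cell surface. Ripk4 is a RIP family kinase, Sntb2 a syntrophin that links membrane proteins to the dystrophin complex, Mtus1 a microtubule-associated protein that binds the angiotensin type 2 receptor, and Hoxc9 a homeobox transcription factor of the posterior Hox cluster.

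RefSeq promoter windows (GRCm38.p6) were matched for 5 of the 10 genes: Esm1, Pros1, Rnf43 (with 2 windows), Ryk and Serpina3g. The 250 bases before the start are shown for 3 of these genes. Serpina3g and Pros1 were called higher after stimulation at all 4 times in both cell types. Esm1 was called lower at 2 of 4 times in CD4 and 3 of 4 times in CD8 cells. All 3 genes lie on the plus strand. In the first pair the capitals mark matches on either strand to GGGNNNNNCC, the letters of an NF-kB-type site, and in Esm1 they mark a match to CTTTGA or CTTTGT, those of a TCF/LEF-type site.
Serpina3g, chr12:104235897-104236146: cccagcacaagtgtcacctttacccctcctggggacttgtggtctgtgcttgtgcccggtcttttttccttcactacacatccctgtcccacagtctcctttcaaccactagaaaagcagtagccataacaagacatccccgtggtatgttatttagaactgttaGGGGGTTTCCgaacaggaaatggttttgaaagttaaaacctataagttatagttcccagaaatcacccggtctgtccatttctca
Pros1, chr16:62854057-62854306: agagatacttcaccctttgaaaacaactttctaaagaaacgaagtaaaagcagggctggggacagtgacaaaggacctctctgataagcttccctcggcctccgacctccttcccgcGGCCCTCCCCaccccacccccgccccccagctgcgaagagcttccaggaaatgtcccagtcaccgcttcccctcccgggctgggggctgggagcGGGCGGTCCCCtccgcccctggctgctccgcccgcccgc
Esm1, chr13:113209409-113209658: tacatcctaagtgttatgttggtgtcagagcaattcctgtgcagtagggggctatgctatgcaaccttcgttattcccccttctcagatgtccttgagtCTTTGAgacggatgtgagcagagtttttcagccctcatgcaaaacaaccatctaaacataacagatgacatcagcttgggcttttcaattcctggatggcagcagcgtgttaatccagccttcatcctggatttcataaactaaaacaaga

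The Serpina3g window held 1 match to GGGNNNNNCC, beginning at base -85 from the start, and 3 matches to GGAAA, the core of an NFAT-type site, at -186, -80 and -70. The Pros1 window held 3 matches to GGGNNNNNCC, at -133, -39 and -38, of which the last 2 overlap and appear as a single run of capitals. It also held 2 matches to the TCF/LEF letters and 1 to GGAAA. The Esm1 window held no match to either the NF-kB or the NFAT letters. The window of Ryk, called higher at all 4 times in CD4 cells, held no match to the NF-kB letters and 1 to GGAAA. Rnf43 was called lower at 3 of 4 times in CD4 cells. One of its windows held 1 match to GGAAA, at -131, and the other 1 match to the NF-kB letters, at -123. Of all 32851 windows of this length, 45.8% held the NF-kB letters, 55.6% the NFAT letters and 27.6% the TCF/LEF letters. None of the 6 windows held TGANTCA, the letters of an AP-1-type site, which 6.75% of all windows held. The Ryk window was the richest in CpG dinucleotides, with 33 against a median of 6 over all windows. A match is a description of the letters and no evidence of binding.

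Between 17277 and 28826 probes were well above background per array. The sorts were checked by lineage genes at 0 h: in CD8 cells Cd8a exceeded its CD4 level 591-fold and Cd8b1 55.5-fold, and Cd4 was 7.86-fold lower. All 12 genes of a T cell list were above background on every array at 0 h. The CD4 arrays at 12, 24 and 72 h stood apart, with repeated spots of a probe varying by 14.1 to 20.6% against 3.36 to 7.54% on the other 22 arrays. At 0 h each cell type was spread over 2 slides, and each stimulated time of a cell type lay on slides of its own. Of the 28 columns in the authors' series matrix, 6 hold values of an array labelled with another time, all among stimulated CD8 cells at 4, 12 and 24 h. The times used here are those of the scanner files, and the calls lost with the times of the series matrix are named below.

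Values below are log2 signals relative to the 75th percentile of the array, so that 0 is the level of the probe at that percentile and a difference of 1 is a doubling. Values of different probes are not set against each other. Every member is described by its brightest probe. Genome positions are those of the array files (mm7), where the probes are 60 bases long unless stated otherwise.

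Before stimulation all 3 old arrays lay above all 3 young arrays for each of the 10 genes, in CD4 cells and in CD8 cells. Over all genes 14.2% showed this order in CD4 cells, 10.7% in CD8 cells and 3.14% in both. The order was what the genes were chosen for, so nothing is read from their count. The median difference of the 10 was 2.74 in CD4 cells (1.69 to 3.70) and 3.35 in CD8 cells (1.16 to 5.19), beside medians of -0.03 and -0.05 over all genes tested. At a Benjamini-Hochberg adjusted p under 0.05 in limma, the genes called higher in old CD4 cells made up 1.21% of those tested and the genes called lower 0.513%. In old CD8 cells these shares were 1.65 and 0.508%.

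**Figure D1:**
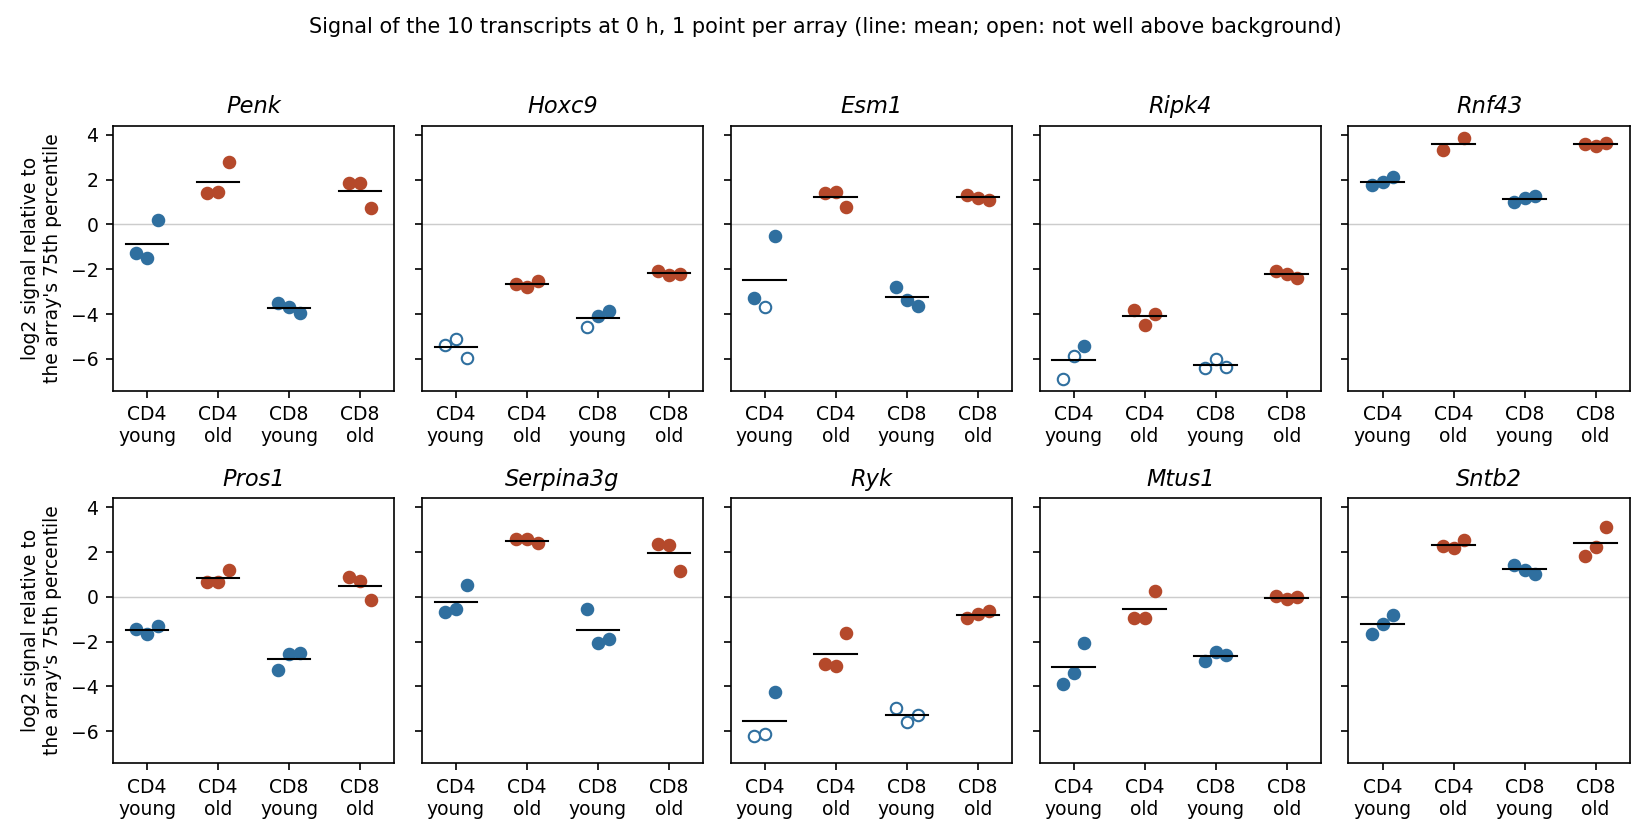
Log2 signal relative to the 75th percentile of the array (y axis) of the 10 transcripts at 0 h in young (blue) and old (red) CD4 and CD8 cells. Each point is 1 array, the line is the mean of the group, and open points were not well above background. In every panel the old arrays lie above the young arrays of the same cell type, with the narrowest gap for Sntb2 in CD8 cells (0.37) and the widest for Penk in CD8 cells (4.27).

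Among the secreted proteins, Penk (chr4:4060735-4060794) was 1.41, 1.45 and 2.77 on the old CD4 arrays and -1.26, -1.49 and 0.18 on the young ones. In CD8 cells it was 1.85, 1.84 and 0.75 in old and -3.51, -3.68 and -3.94 in young cells. The differences were 2.73 (standard error 0.52) and 5.19 (0.52), or 6.64-fold and 36.5-fold. The old groups of the 2 cell types overlapped, whereas the young CD8 arrays all lay far below the young CD4 arrays. A dimmer second Penk probe gave 1.90 in CD4 and 4.64 in CD8 cells.

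Pros1 (chr16:62869274-62869333) was 0.68, 0.66 and 1.20 in old and -1.42, -1.67 and -1.32 in young CD4 cells. The CD8 values were 0.89, 0.71 and -0.13 against -3.25, -2.54 and -2.49. The groups of each cell type were separated by 1.97 and 2.36 between the lowest old and the highest young array. The differences of 2.31 and 3.25 (standard error 0.31 each) correspond to 4.97-fold and 9.53-fold. A second probe gave 1.99 and 2.54.

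Esm1 (chr13:110373894-110373953) was 1.41, 1.44 and 0.76 in old CD4 cells and -3.30, -3.69 and -0.51 in young ones. Its young CD4 arrays were the most uneven of any group, since replicate 3, which shares a slide with old replicate 3, was far brighter than the other two. The age difference was accordingly 4.92 on the slide of replicates 1 and 2 but 1.27 on the slide of replicate 3. Its CD8 signal was 1.31, 1.19 and 1.11 in old and -2.78, -3.37 and -3.63 in young cells, a difference of 4.46 (standard error 0.68) or 22.0-fold.

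Serpina3g (chr12:101736157-101736216) was 2.56, 2.56 and 2.39 in old and -0.69, -0.56 and 0.54 in young CD4 cells. Among CD8 cells it was 2.37, 2.32 and 1.17 in old and -0.53, -2.05 and -1.90 in young cells. The differences were 2.74 and 3.45 (standard error 0.49 each). In CD8 cells the difference was 4.32 on one slide and 1.70 on the other, so its size moved with the slide while the old arrays stayed above the young ones on both. Serpina3g belongs to a cluster of near-identical serpin genes, and signal from its relatives in this single probe cannot be told apart.

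Of the Wnt pathway members, Ryk was -2.99, -3.10 and -1.60 in old CD4 cells and -6.20, -6.12 and -4.24 in young ones, of which the last alone was well above background. In CD8 cells it was -0.94, -0.78 and -0.65 in old cells, and none of the 3 young arrays (-4.96, -5.56 and -5.29) was well above background. The young level was set at the lowest signal of any probe well above background on the array, or at the probe's own signal where that was higher. The old CD8 level was then 22.3-fold above the young one. The young signal itself was not measured, so this fold and those taken in the same way below are not exact and are no lower limits. The brightest Ryk probe carries the Ryk accession but is placed by the file on chromosome 8 (chr8:121741137-121741196), whereas RefSeq and the second probe (chr9:102610181-102610240) place the gene on chromosome 9. The second probe gave smaller differences of 1.17 in CD4 cells, where its old and young arrays overlapped, and 3.00 in CD8 cells.

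Rnf43 (chr11:87805350-87805409) was 3.32 and 3.87 on 2 old CD4 arrays, the spot on replicate 2 having been flagged as non-uniform, and 1.75, 1.88 and 2.09 on the young ones. The CD8 values were 3.57, 3.48 and 3.65 in old and 1.02, 1.17 and 1.24 in young cells. It was well above background on all 28 arrays and its replicates were tight, with a standard deviation of 0.09 in old and 0.12 in young CD8 cells. The differences were 1.69 (standard error 0.22) and 2.43 (0.19), or 3.22-fold and 5.37-fold. The CD4 fit drops the flagged array, whose value would have been 3.15, still above all young arrays. A second probe, above background on 11 arrays, gave 1.95 and 1.33 at 0 h but was higher in old cells in only 6 of 8 stimulated pairs, with a lowest difference of -0.41.

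Within the cell, Ripk4 (chr16:98126110-98126169) was a dim transcript at -3.83, -4.51 and -3.98 in old CD4 cells and -6.88, -5.86 and -5.44 in young ones. On the CD8 arrays it was -2.09, -2.20 and -2.39 in old cells, and none of the young arrays (-6.42, -6.01 and -6.36) was well above background. Taken as for Ryk, the old CD8 level was 16.4-fold above the young one. In CD4 cells the difference was 1.96 (standard error 0.34), with 1 of 3 young arrays above background. The age gap of Ripk4 was thus visibly wider in CD8 cells, a contrast that was not tested because age chose the gene.

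Sntb2 (chr8:105614178-105614237) showed the opposite balance. It was 2.25, 2.19 and 2.54 in old and -1.65, -1.20 and -0.81 in young CD4 cells, a difference of 3.55 (standard error 0.33) or 11.7-fold. Among CD8 cells it was 1.80, 2.24 and 3.11 in old and 1.43, 1.19 and 1.04 in young cells, a difference of 1.16 (0.33) or 2.24-fold. Old CD4, old CD8 and young CD8 cells thus all lay above 1, and only young CD4 cells lay below 0. A second probe gave 2.35 in CD4 and 1.77 in CD8 cells.

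Mtus1 (chr8:39775134-39775193) was -0.94, -0.94 and 0.27 in old and -3.91, -3.38 and -2.05 in young CD4 cells. In CD8 cells it was 0.03, -0.12 and -0.02 against -2.88, -2.45 and -2.59. The differences of 2.58 and 2.60 (standard error 0.46 each) were the most alike between cell types among the 10 genes. Mtus1 had 3 other probes. The second brightest gave 1.55 and 2.70. Another, above background on 7 arrays, gave 1.97, with old and young CD4 arrays overlapping, and 2.65. The dimmest was above background on 1 array and gave -1.06 and -0.21.

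Hoxc9 (chr15:102970460-102970519) was -2.67, -2.78 and -2.52 in old CD4 cells and not well above background on any young CD4 array (-5.39, -5.10 and -5.97). Taken as for Ryk, the old CD4 level was 7.12-fold higher. The CD8 values were -2.07, -2.25 and -2.20 in old and -4.59, -4.07 and -3.85 in young cells, of which the first was not above background. The CD8 difference was 2.00 (standard error 0.26). Across the 8 probes other than the brightest of each gene, all old arrays lay above all young ones for 5 probes in CD4 and 7 probes in CD8 cells.

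After stimulation the same genes were compared in single pairs of an old and a young array. The old array was higher in 78 of 78 measured pairs of a gene, time and cell type. Of the 80 possible pairs, 2 were lost because the spots of Penk and Pros1 on the old CD4 array at 72 h were flagged as non-uniform. Without the 3 CD4 times that stood apart in spot noise the count was 50 of 50, which follows from the full count. Over all genes 2.41% were higher in old cells in all 8 stimulated pairs and 1.54% in all 10 conditions, and the members' count is again what they were chosen for. The pairs have no replicates, so these differences have no error.

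The median difference was wider in CD8 than in CD4 cells at each of the 4 times. The median over the 10 genes was 2.90, 3.31, 2.97 and 2.63 at 4, 12, 24 and 72 h in CD8 cells. In CD4 cells it was 2.30, 2.15, 2.07 and 1.53, the last over 8 genes. At 72 h the 2 medians cover unlike sets, since Penk and Pros1, with CD8 gaps of 4.71 and 3.15, are missing in CD4 cells. The old and young CD8 arrays at 12 h lay on different slides, unlike the other stimulated pairs, so at that time age cannot be told apart from slide. With the times of the series matrix the first 3 CD8 medians would belong to 24, 4 and 12 h. The smallest CD8 difference was 1.25 (Ripk4 at 72 h), where the old array was not above background. In CD4 cells some differences came close to 0: 0.08 for Mtus1 at 24 h, where neither array was above background, 0.15 for Rnf43 at 72 h, and 0.40 for Ripk4 at 24 h.

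**Figure D2:**
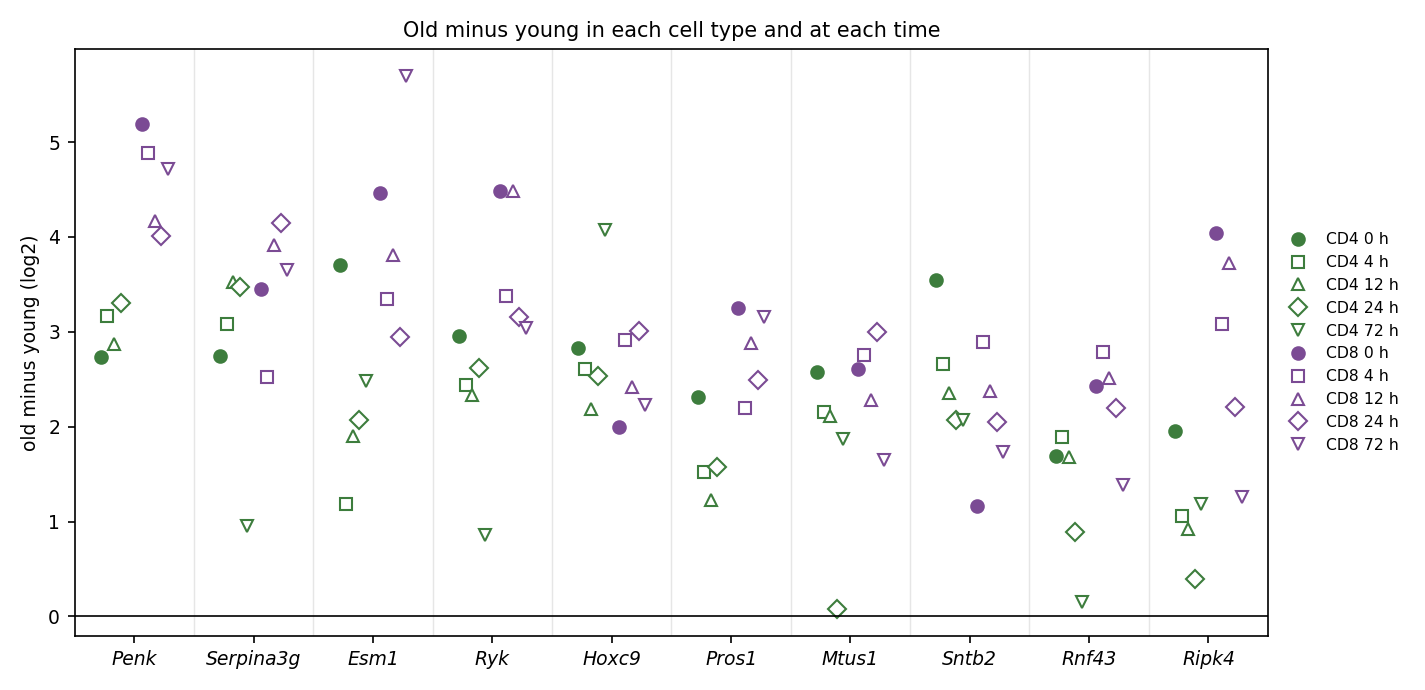
Old minus young log2 difference (y axis) of each transcript, ordered by the median over its measured conditions, in CD4 (green) and CD8 (purple) cells. Filled points are differences of 3-array means at 0 h and open shapes are single pairs of arrays at 4, 12, 24 and 72 h. All measured points lie above 0, and the lowest is Mtus1 in CD4 cells at 24 h (0.08).

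Members differed in how their gap moved over time. Rnf43 differed by 1.69, 1.89, 1.68, 0.89 and 0.15 at 0, 4, 12, 24 and 72 h in CD4 cells, and its CD8 gap was 2.43 at 0 h and 1.39 at 72 h. For Ripk4 in CD8 cells both arrays were above background at 4 and 24 h, where the gap was 3.08 and 2.20. Esm1 in CD8 cells went the other way at the end: at 72 h the old array stood at -1.17 and the young one at -6.87, below background. That gap was 51.9-fold, taken as for Ryk at 0 h against an unmeasured young level. Hoxc9 in young cells was above background on only 1 of 8 stimulated arrays (CD8 at 72 h), where the gap was 2.23. At the 6 other stimulated pairs with an old array above background the old level was 4.09-fold to 12.0-fold higher, taken in the same way. At 12 h in CD4 cells neither array was above background. Serpina3g kept a gap of 2.53 to 4.15 in CD8 cells and of 3.08 to 3.52 in CD4 cells up to 24 h, but of 0.95 at 72 h in CD4 cells.

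Markers of other cells and states were set beside these values. A list of 20 memory and effector genes had a summed level (relative to the array's 75th percentile, set at 1) of 165 to 200 in old CD4 arrays at 0 h and of 43.1 to 79.5 in young ones. In CD8 arrays the sum was 1042 to 1267 against 340 to 423. Of these 20 genes 6 were called higher in old CD4 and 12 in old CD8 cells, beside 1.21 and 1.65% of all genes, among them the granzyme gene Gzmk (5.66 and 5.30). The chemokine gene Ccl5 was higher by 3.95 in old CD4 cells, and the granzyme genes Gzmm and Gzmb by 4.41 and 4.26 in old CD8 cells. Of 12 naive T cell genes, Sox4 alone was called, lower in old cells by 2.67 in CD4 and 2.57 in CD8 cells on the log2 scale. In limma 6 of the 12 in CD4 and 5 in CD8 cells had an unadjusted p under 0.05, in either direction. Their summed level at 0 h was 427 to 465 in old and 481 to 526 in young CD4 arrays, and 427 to 621 against 483 to 653 in CD8 arrays. At 0 h the memory and effector levels were higher in old cells, as the members were. After stimulation the ranges of this sum overlapped between the ages. They were 273 to 574 in old and 135 to 568 in young CD4 arrays, and 784 to 1464 against 608 to 974 in CD8 arrays. The part of either list in the members' differences was not tested.

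Genes of B cells also moved with age. The summed level of 12 B cell genes was 11.6 to 12.6 in old and 2.95 to 5.13 in young CD4 arrays at 0 h, and 17.3 to 26.7 against 10.8 to 12.4 in CD8 arrays. Of 11 tested, 4 were called higher in old CD4 cells, including Ms4a1 (3.36), which encodes CD20, and 2 in old CD8 cells, beside the same shares of all genes. After stimulation the summed level was 2.19 to 4.18 in old and 1.25 to 2.25 in young CD4 arrays. In stimulated CD8 arrays the ranges overlapped, with 2.38 to 4.59 in old and 2.35 to 2.81 in young ones. The myeloid list reached 234.6 and 234.8 on the old and young CD4 arrays of replicate 3, on a slide of their own, and on the other slide 13.8 and 14.2 on the old and 3.40 and 3.54 on the young CD4 arrays at 0 h. Without that slide the old minus young differences of the 10 members in CD4 cells were 1.51 to 4.92. In CD8 cells the myeloid list was 51.6 to 189.3 in old and 9.39 to 45.7 in young arrays at 0 h. After stimulation it was 1.07 to 39.7 in old and 0.76 to 141.5 in young CD4 arrays. In stimulated CD8 arrays it was 0.59 to 73.8 against 0.51 to 5.86. None of its 12 genes was called by limma for age at 0 h in either cell type (1 in CD4 and 0 in CD8 cells had an unadjusted p under 0.05). The part of B and myeloid cells in the members' differences was not tested. For endothelial genes, of interest for Esm1, the summed level at 0 h was 1.45 to 1.67 in old and 2.25 to 3.22 in young CD4 arrays, and 0.94 to 1.23 against 1.25 to 1.38 in CD8 arrays. After stimulation the median of the sum was 3.03 in old and 2.15 in young CD4 arrays, and 3.34 and 2.31 in CD8 arrays. None of the 8 tested was called by limma (1 in each cell type had an unadjusted p under 0.05), and Cdh5, Tie1 and Emcn were not above background on any old array at 0 h.

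Related genes were taken from 11 lists drawn around the members, such as opioid peptides and receptors, Hox genes, Wnt receptors and serpins. Of 161 such genes, 105 passed the filter. In old against young CD4 cells 1 was called higher and 1 lower, beside 1.72% called over all genes. In CD8 cells 5 were called higher and 1 lower, beside 2.16%. With slide as a block the counts were 18 in CD4 and 16 in CD8 cells, but so were 22.8% and 9.55% of all genes. The medians of the 11 lists lay between -0.41 and 0.37 in CD4 and between -0.53 and 0.78 in CD8 cells.

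A few relatives did move. Hoxa7, another homeobox gene, was 1.47, 1.37 and 1.66 in old and -0.28, -0.35 and -0.70 in young CD4 cells, a difference of 1.94 (standard error 0.22, adjusted p = 0.00525, n = 3 arrays a group). Among CD8 cells it differed by 2.11 (adjusted p = 0.00119).

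Among the serpins, Serpina5, the protein C inhibitor, was 1.42, 1.35 and 0.29 in old and -4.28, -3.59 and -3.74 in young CD8 cells, a difference of 4.89 (standard error 0.66, adjusted p = 0.00465). Serpinb6b was higher by 0.90 in old CD8 cells (adjusted p = 0.0419). Lrrk1, a kinase placed near the RIP family, was 0.07, -0.10 and 0.68 in old and -4.09, -5.04 and -4.95 in young CD8 cells, a difference of 4.91 (standard error 0.97, adjusted p = 0.0307). Its CD4 difference of 3.23 was not called (adjusted p = 0.136), but was called with slide as a block (adjusted p = 0.00119). Ptk7, a Wnt co-receptor, fell by 1.91 in old CD4 cells (adjusted p = 0.0131), and Ctsl, the cathepsin that can process proenkephalin, fell by 1.39 in old CD8 cells (adjusted p = 0.00119). None of the 10 tested genes of protein S and its receptors, the 9 of the dystrophin complex, the 4 of MTUS2 and the end-binding proteins or the 10 vascular growth factor genes was called by limma for age in either cell type. At an unadjusted p under 0.05 these 4 lists held 2, 2, 2 and 2 genes in CD4 and 1, 0, 1 and 0 in CD8 cells.

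The first test that the choice of genes did not use is CD8 against CD4 at 0 h, over both ages (n = 6 arrays per cell type, of which 5 were measured for Rnf43 in CD4). Over all genes 13.6% were called in this comparison, 8.7% higher and 4.9% lower in CD8 cells. Of the members 3 were higher in CD8 cells, 2 were lower and 5 did not pass. Each slide holds 1 cell type only. With slide as a random block in limma (consensus correlation 0.686) no member was called, and 3 of 10 had an unadjusted p under 0.05, so the difference between cell types cannot be told apart from that between slides. The order of the 10 genes is plotted beside their values at each age.

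**Figure D3:**
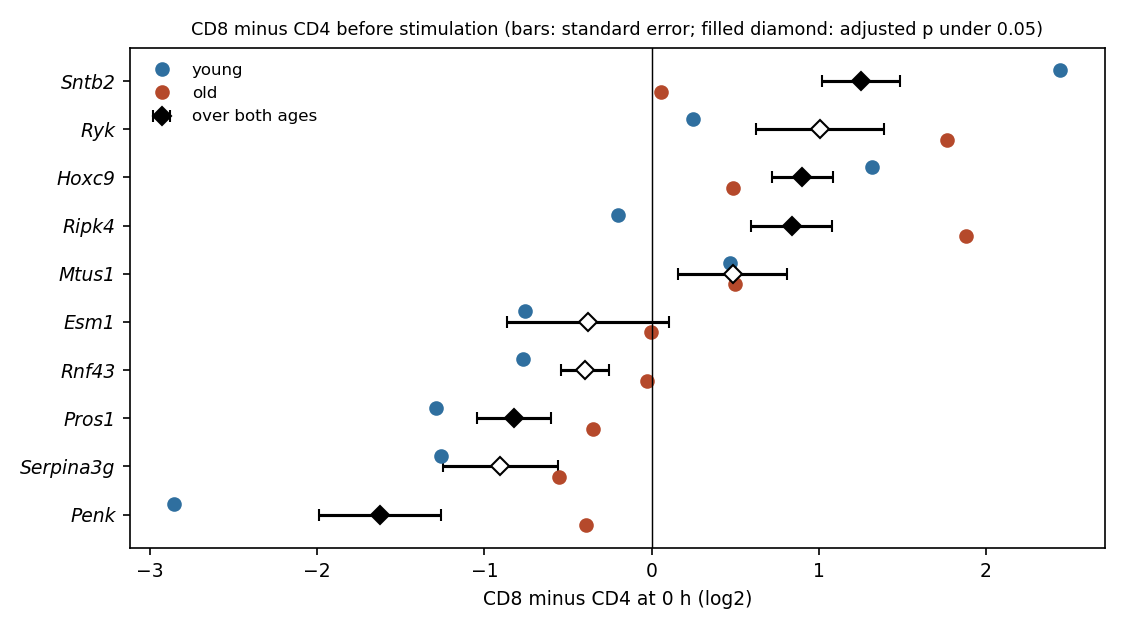
CD8 minus CD4 log2 difference at 0 h (x axis) for each transcript: black diamonds give the estimate over both ages with its standard error, filled where the adjusted p was under 0.05, and blue and red points give the difference in young and in old cells. Penk (-1.62) and Pros1 (-0.82) lie on the left and Sntb2 (1.25), Hoxc9 (0.90) and Ripk4 (0.84) on the right. Sntb2 and Penk differ mostly in young cells, Ripk4 in old cells.

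Sntb2 was higher in CD8 cells by 1.25 (standard error 0.23, adjusted p = 0.00714), 2.45 in young and 0.06 in old cells. Hoxc9 was higher by 0.90 (standard error 0.18, adjusted p = 0.0103), with 1.32 in young cells, where all CD4 and 1 CD8 array were below background, and 0.49 in old cells. Ripk4 was higher by 0.84 (standard error 0.24, adjusted p = 0.0472), but its difference was 1.88 in old and -0.20 in young cells, so the old arrays carried it. The call was lost in 11 of the 12 fits that each left out 1 array, all but young CD4 replicate 3 (adjusted p 0.0563 to 0.109). Penk was lower in CD8 cells by 1.62 on the log2 scale (standard error 0.37, adjusted p = 0.0175), with -2.85 in young and -0.39 in old cells. Pros1 fell by 0.82 (standard error 0.22, adjusted p = 0.0367), with -1.29 and -0.35, and this call was lost in 10 of the 12 such fits, all but those without old CD8 replicates 1 and 3 (adjusted p 0.053 to 0.0766).

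The other 5 genes did not pass. Ryk stood at 1.01 (95% interval 0.16 to 1.86, adjusted p = 0.113), Serpina3g at -0.91 (-1.67 to -0.14, adjusted p = 0.115), and Rnf43 at -0.40 (-0.73 to -0.07, adjusted p = 0.107). Mtus1 was at 0.49 (-0.24 to 1.21, adjusted p = 0.357) and Esm1 at -0.38 (-1.46 to 0.70, adjusted p = 0.635). In old cells alone the difference was -0.03 for Rnf43 and 0.06 for Sntb2, less than the spread between replicates.

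The change with stimulation was tested at each time against 0 h within a cell type, over both ages, in a fit of all 28 arrays with an age term per cell type. This fit takes the change as alike at both ages, so opposite moves in old and young cells average out. Each time has 1 old and 1 young array, and time cannot be told apart from slide. Over all genes 32, 40.5, 44.6 and 39.1% were called at 4, 12, 24 and 72 h in CD4 cells (at 24 h 25.1% higher and 19.6% lower) and 27.2, 30.1, 33.1 and 27.9% in CD8 cells. The members made 31 calls of 40 in CD4 and 28 of 40 in CD8 cells. They did not move as a group: at 4, 12, 24 and 72 h in CD4 cells 5 rose each time while 2, 3, 4 and 2 fell, and in CD8 cells 3, 3, 4 and 4 rose while 2, 4, 5 and 3 fell.

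**Figure D4:**
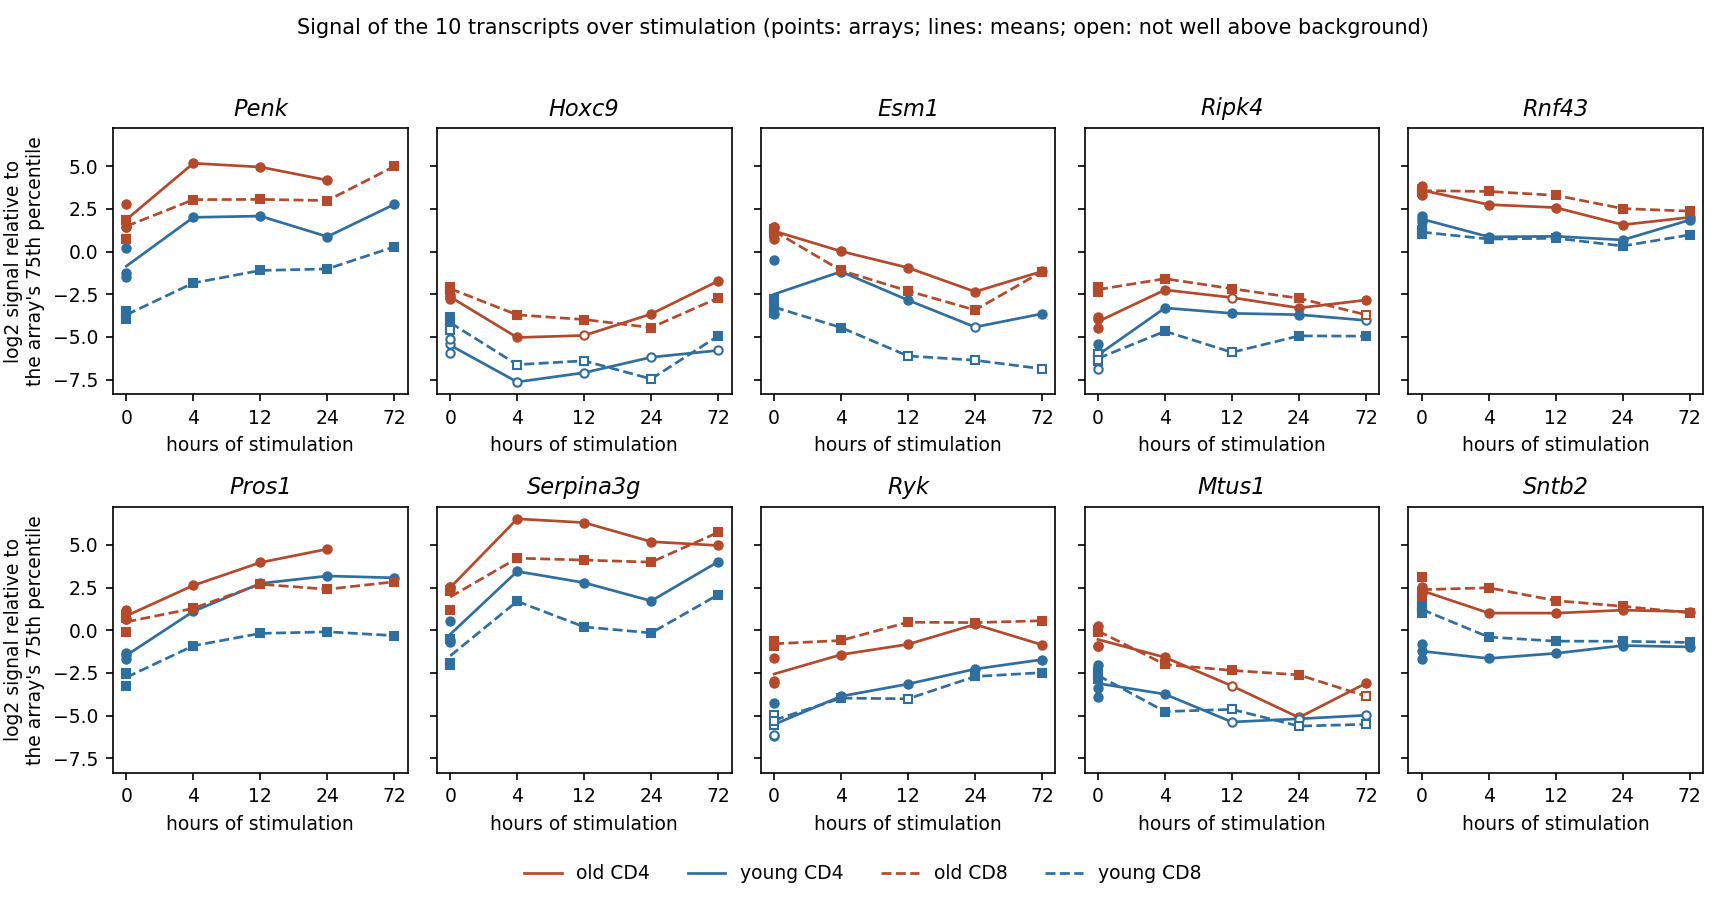
Log2 signal relative to the 75th percentile of the array (y axis) over hours of stimulation (x axis, evenly spaced categories) in old (red) and young (blue) CD4 (solid, circles) and CD8 (dashed, squares) cells. Points are arrays, lines join group means, and open points were not well above background. Penk, Pros1 and Serpina3g rise at both ages and Mtus1 falls at both. Esm1 also falls, except in young CD4 cells at 4 h, where it is higher by 1.33 than at 0 h. The red line stays above the blue one of the same cell type throughout.

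Penk, Pros1 and Serpina3g rose at all 8 combinations of time and cell type. Serpina3g reached 6.53 in old and 3.45 in young CD4 cells at 4 h, a rise of 3.86 (standard error 0.49, adjusted p = 7.88e-06) or 14.5-fold over 0 h. In CD8 cells it rose by 2.74 at 4 h and by 3.69 at 72 h (adjusted p = 0.000349 and 1.78e-05). The 24 h change was 2.33 in CD4 and 1.69 in CD8 cells, the latter belonging to 12 h with the times of the series matrix. The young cells at 4 h lay above the unstimulated old cells in CD4 (3.45 against 2.39 to 2.56).

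Penk rose by 3.08 at 4 h in CD4 cells (standard error 0.45, adjusted p = 4.02e-05), to 5.17 in old and 2.01 in young cells. At 72 h in CD4 cells the rise of 3.72 (adjusted p = 4.36e-05) rests on the young array alone, since the old spot was flagged and dropped. On the CD8 arrays it rose by 1.71 at 4 h and 3.75 at 72 h (adjusted p = 0.0069 and 6.29e-06), the latter 13.5-fold. The young CD8 array at 72 h, at 0.28, was the first young CD8 array to come near the unstimulated old level of 0.75 to 1.85.

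Pros1 rose more slowly. In CD4 cells its change was 2.18, 3.67, 4.28 and 4.33 at 4, 12, 24 and 72 h, the last again without the old array, and the 24 h value is 19.5-fold (standard error 0.33, adjusted p = 3.17e-08). The CD8 change was 1.32, 2.39, 2.29 and 2.40 (adjusted p from 0.0054 to 2.98e-05). Its call at 4 h was lost with median scaling (adjusted p = 0.0636). The rise was smaller in CD8 than in CD4 cells by 1.99 at 24 h (standard error 0.47, adjusted p = 0.0247) and by 1.93 at 72 h (0.53, adjusted p = 0.0324). Over all genes 4.81 and 8.18% were called for such a difference at these times, 2.88 and 5.04% with the smaller value in CD8 cells. At 4 h it was 0.0616% (0.0205% higher, 0.0411% lower) and at 12 h 1.25%, and no member was called at either time (adjusted p from 0.16 to 0.977 in limma, with 1 and 3 members at an unadjusted p under 0.05). Both calls of a smaller Pros1 rise in CD8 cells were lost with slide as a random block and with median scaling. With the series matrix times the difference at 24 h was -2.96.

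Ryk and Ripk4 rose in CD4 cells at all 4 times. Ryk reached 0.35 in old and -2.27 in young CD4 cells at 24 h, a rise of 3.08 (standard error 0.53, adjusted p = 0.0001). Among CD8 cells it passed at 24 h (1.90, adjusted p = 0.00852) and 72 h (2.07, adjusted p = 0.00582). Only 1 of 3 young CD4 arrays and none of the young CD8 arrays was well above background at 0 h, so the rises in both cell types are not exact. They rest on the brightest probe, placed on chromosome 8. The CD8 rise at 24 h was lost with a normexp background (0.86). The rise of Ryk at 4 h in CD4 cells (1.40, adjusted p = 0.0497) was lost in 10 of the 12 fits that each left out 1 array at 0 h (adjusted p 0.0513 to 0.0926) and was 0.19 with a normexp background. With the mean of both probes it was 1.17 and did not pass (adjusted p = 0.13).

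Ripk4 rose by 2.31 at 4 h in CD4 cells (standard error 0.49, adjusted p = 0.00122), from arrays of which 2 of 6 were below background. With a normexp background the rise was 0.45 at 4 h, 0.99 at 12 h and 0.81 at 24 h, and none of these 3 passed (adjusted p 0.349, 0.0512 and 0.12). In CD8 cells it did not pass at any time, with 1.12 at 4 h (95% interval 0.08 to 2.15) and -0.09 at 72 h (-1.12 to 0.95). The change at 72 h averages -1.48 in old cells, whose array was then not above background, and 1.31 in young cells. The difference between the cell types was not called at any time (adjusted p from 0.133 to 0.71), so a rise particular to CD4 cells was not shown.

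**Figure D5:**
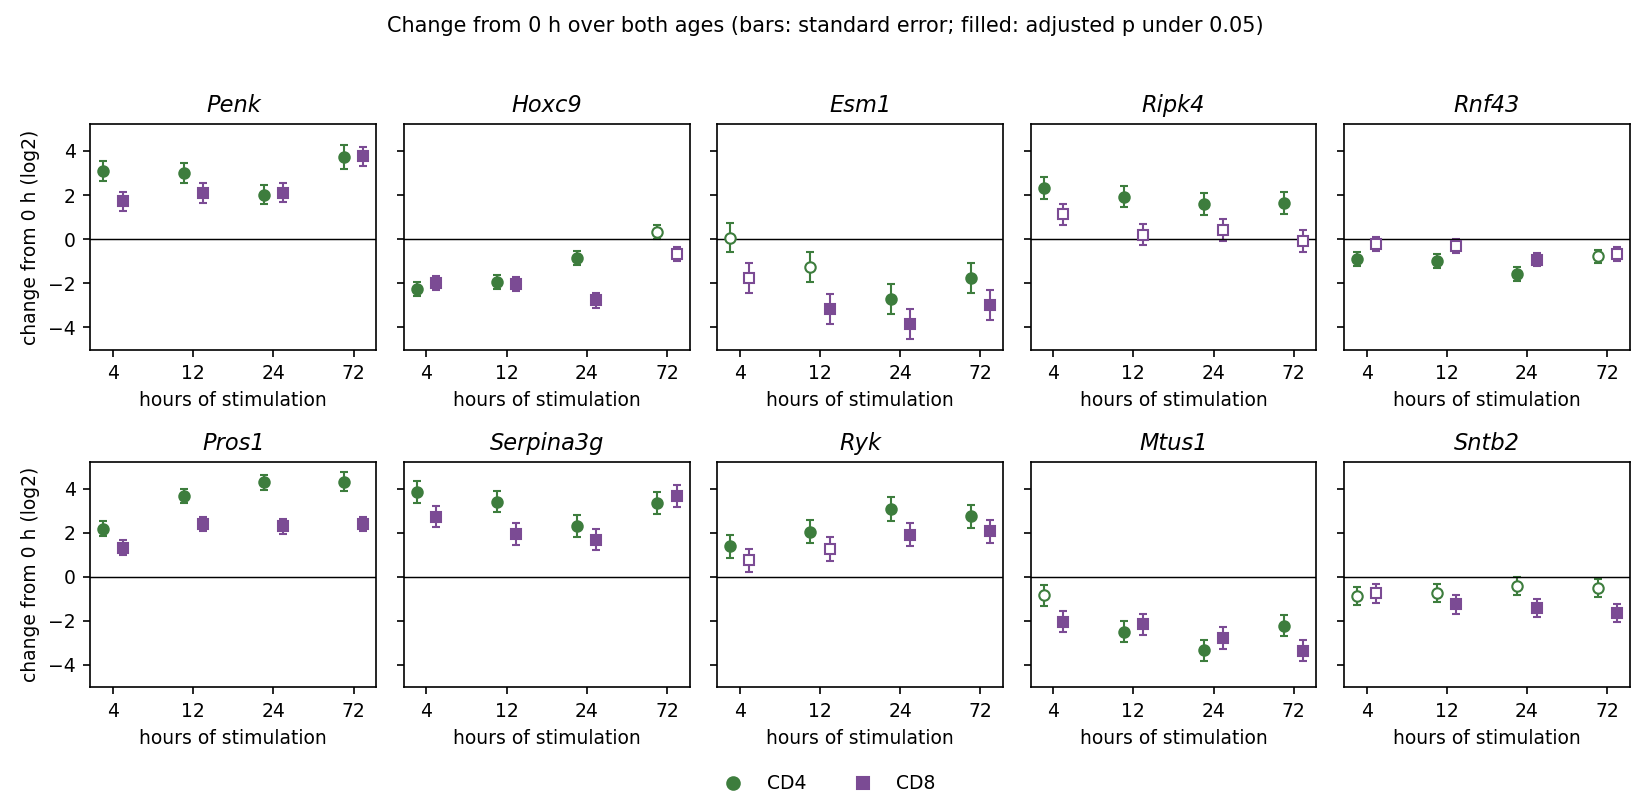
Log2 change from 0 h over both ages (y axis) at 4, 12, 24 and 72 h (x axis) in CD4 (green circles) and CD8 (purple squares) cells. Bars are standard errors, and filled points had an adjusted p under 0.05. Penk, Pros1 and Serpina3g lie above 0 at all 8 points, whereas Mtus1, Esm1 and Hoxc9 lie mostly below, though with a normexp background the Hoxc9 points at 12 and 24 h in CD4 cells lie above 0.

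Of the genes that fell, Mtus1 dropped by 3.33 at 24 h in CD4 cells (standard error 0.48, adjusted p = 1.66e-05) and by 3.35 at 72 h in CD8 cells (adjusted p = 3.49e-05). It passed at 3 of 4 times in CD4 and at all 4 in CD8 cells. By 24 h neither old nor young CD4 array was above background (-5.11 and -5.19), so the size of the fall and the age gap of 0.08 there are not measured. With a normexp background 6 of its 7 calls were lost, all but CD8 at 24 h, and the changes at 24 h in CD4 and 72 h in CD8 cells were -1.02 and -0.45. Esm1 fell by 2.74 at 24 h in CD4 cells (standard error 0.68, adjusted p = 0.00282) and by 3.19, 3.87 and 3.00 at 12, 24 and 72 h in CD8 cells (adjusted p = 0.00146, 0.000215 and 0.00252). Its change of 0.07 at 4 h in CD4 cells was not called (-1.35 to 1.49) and averages -1.19 in old and 1.33 in young cells. Its call at 72 h in CD4 cells (-1.75, adjusted p = 0.0477) was lost in 10 of 12 such fits (adjusted p 0.0529 to 0.0828). With a normexp background 4 of the 5 Esm1 calls were lost, all but CD8 at 24 h. The change was then -1.45 at 24 h and -0.73 at 72 h in CD4 cells, and -1.41 at 12 h and -0.05 at 72 h in CD8 cells.

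Hoxc9 fell at 4, 12 and 24 h in both cell types and did not pass at 72 h in either. On the CD8 arrays it fell by 2.00, 2.02 and 2.79 (adjusted p = 0.00011, 0.000101 and 2.61e-06) and then stood at -0.66 at 72 h (-1.33 to 0.01). In CD4 cells it fell by 2.27, 1.94 and 0.85. Most young arrays were below background throughout, so these values are close to the limit of the array, and with a normexp background 5 of the 6 calls were lost, all but CD4 at 4 h. The CD4 changes at 12 and 24 h then turned to 0.20 and 0.16, and the CD8 changes were -0.42, -0.65 and -0.88. The CD4 call at 24 h (adjusted p = 0.0361 in limma) was also lost with median or quantile scaling and without a filter. It was lost too in 3 of the fits that each left out 1 array at 0 h (adjusted p 0.052 to 0.066). The fall at 24 h was larger in CD8 than in CD4 cells by 1.94 (standard error 0.45, adjusted p = 0.023). That call was lost with slide as a random block, with median or quantile scaling and with the series matrix times, where it was -1.14.

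Rnf43 fell by 0.91, 0.98 and 1.59 at 4, 12 and 24 h in CD4 cells (adjusted p = 0.0311, 0.0168 and 0.000421). At 72 h it stood at -0.79 (adjusted p = 0.0526). With the mean of both probes none of the 3 CD4 calls held (-0.34, -0.09 and -1.03). The calls at 4 and 12 h were also lost with median scaling, and that at 4 h with a normexp background, without a filter and without old CD4 replicate 3. Its CD8 signal fell at 24 h only (0.93, adjusted p = 0.0257), a call lost with the mean of both probes and with median scaling. In old CD4 cells it went from 3.32 and 3.87 at 0 h to 1.57 at 24 h, and in young ones from 1.75 to 2.09 down to 0.68. Sntb2 fell in CD8 cells by 1.25, 1.42 and 1.65 at 12, 24 and 72 h (adjusted p = 0.0273, 0.0118 and 0.00529). Its calls at 12 and 24 h were lost with median scaling (adjusted p 0.123 and 0.107). Sntb2 did not pass in CD4 cells, where it stood between -0.87 and -0.41. At 24 h in CD4 cells its change was -1.15 in old and 0.33 in young cells. A difference between the cell types in its change was not called (adjusted p from 0.243 to 0.977), with -1.16 at 72 h (95% interval -2.38 to 0.07).

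With slide as a random block (consensus correlation 0.398), 17 of these 59 calls did not pass. They were Ripk4 at 12, 24 and 72 h and Rnf43 at 4 and 12 h in CD4 cells, Rnf43 at 24 h in CD8 cells, Sntb2 at all 3 times, Ryk at 4 h in CD4 and at 24 and 72 h in CD8 cells, Esm1 at 72 h in both, Hoxc9 at 24 h in CD4 cells, and Serpina3g at 12 and 24 h in CD8 cells. No call of Penk, Pros1 or Mtus1 was lost there, and none of Penk, Pros1, Serpina3g or Sntb2 with a normexp background. With the times of the series matrix 4 of 59 calls did not pass, all in CD8 cells at 24 h: Esm1, Rnf43, Ryk and Sntb2.

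Beside Serpina3g, of 10 other serpins of lymphocytes and myeloid cells 1, 6, 6 and 6 were called higher at 4, 12, 24 and 72 h in CD4 cells, where 15.6, 24.1, 25.1 and 22.2% of all genes were. In CD8 cells 2, 1, 4 and 7 were called higher, beside 14.2, 16, 16 and 13.6% of all genes. Their median change at 72 h was 2.36 and 2.58, beside 0.21 and 0.01 over all genes. Beside Hoxc9, 6 of 14 Hox genes fell at 4 h in CD4 cells and 3 at each of 12, 24 and 72 h, beside 16.4, 16.4, 19.6 and 16.9% of all genes, with medians of -0.87, 0.08, -0.42 and -0.64. In CD8 cells 3, 3, 3 and 4 of 14 fell, beside 13, 14.2, 17 and 14.3% of all genes. Beside Penk, the opioid genes moved in no single direction, with 4 of 8 lower at 24 h in CD4 cells, beside 19.6% of all genes, and 2 higher and 1 lower at 72 h.

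The pattern of each gene over the arrays was also set against all other tested genes, as a description in which all points share their libraries and the age groups. Penk was most like Serpina3g (Pearson r = 0.95 over 27 arrays) and Casp4 (0.92), and Serpina3g most like its neighbour in the serpin cluster Serpina3f (0.95 over 28 arrays) and Casp4 (0.91). Pros1 was most like Penk (0.90) and Mdfic (0.90). Ryk resembled Ttc39c (0.90) and Rbfox2 (0.90), and Ripk4 resembled AU020206 (0.86) and Ryk (0.86). Rnf43 was most like Igf2 (0.93) and the granzyme gene Gzmk (0.88), both over 27 arrays. Mtus1 was most like Apol10b (0.91) and the ectonucleotidase gene Nt5e (0.91), Esm1 like Apol10b (0.91) and Lmo2 (0.87), Hoxc9 like Naip2 (0.91) and Arhgef16 (0.87). Sntb2 was most like an unnamed transcript (0.87).

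Within one age the members split by their course over stimulation. Penk and Serpina3g had r = 0.91 over the 14 young and 0.97 over 13 old arrays, and Penk and Pros1 0.89 and 0.85. Pros1 and Mtus1 had -0.71 in young and -0.90 in old arrays. Rnf43 and Mtus1 had 0.90 over 13 old arrays. Over all 45 pairs of members the median r was -0.05 in young and 0.00 in old arrays.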

How the data were processed

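Intensity values per spot were read and background-corrected with Agilent Feature Extraction by the authors, per the file headers (version 10.1.1.1 on 18 arrays, 9.5.1.1 on 10). The latter 10 were the stimulated CD4 arrays and the CD4 arrays of replicate 3 at 0 h, read on another scanner model. The authors' deposited log2 values in the series matrix served as an alternative at 0 h only. Control spots and flagged spots were left out, repeat spots averaged, and log2 of the processed signal taken minus the array's 75th percentile. Probes were named by accession, symbol or synonym in RefSeq GRCm38.p6, and the brightest probe stood for a gene. limma 3.58.1 in R 4.3.3 (lmFit, eBayes, Benjamini-Hochberg) was fitted over all 19481 genes: the 12 arrays at 0 h for age and cell type, all 28 for time. The script was tested on simulated data. Members and lists were chosen with earlier results of these data known. All probes of the 10 members are named. Of the lists described, some of the called genes are named, at most 4 per direction. The erythroid and platelet list and the regulatory T cell list are not described. Of each member the 2 genes most like it are named, except for Sntb2, with 1 unnamed transcript. A called gene is not reported here. Same-numbered CD4 arrays deviated together (r = 0.55, 0.49 and 0.68), following their slides. Same-numbered CD8 arrays did not (-0.24, 0.09 and -0.40), but of these only replicates 2 shared a slide. Old and young CD8 arrays on one slide had r from -0.01 to 0.34, and those on different slides from -0.40 to -0.04. The number of arrays limits precision. Alternatives were other scalings, backgrounds, filters, probes, blocks and left-out arrays.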

Additional observations from a re-analysis of the deposited data

Results flagged for a closer look

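A different response to stimulation was called by 3 tests in CD8 and CD4 cells, over both ages. The change of Hoxc9 at 24 h, CD8 minus CD4, was -1.94 (standard error 0.45, adjusted p = 0.023 in limma). The change of Pros1 was -1.99 at 24 h (0.47, adjusted p = 0.0247) and -1.93 at 72 h (0.53, adjusted p = 0.0324), where the old CD4 array is missing. Each rests on 1 old and 1 young array per cell type and time, on slides of their own. The stimulated CD4 and CD8 arrays also differed in scanner and software version.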

How the results depend on the processing

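The order of all old above all young arrays held for 10 of 10 members in each cell type under median and quantile scaling and with the series matrix, which holds the same arrays. Within each slide and with any array left out the order could not break, so these checks add nothing. In CD4 cells it held for 8 with the mean of all probes and for 9 with a normexp background. Of the stimulated pairs, 75 with a normexp background, 77 with median or quantile scaling and 79 of 80 with flagged spots kept were higher in old cells. The 50 of 50 without the CD4 pairs at 12, 24 and 72 h follow from the main count. The 5 calls of CD8 against CD4 were 3 with the mean of all probes, without a filter and with the replicate block, 2 with median scaling, 0 with slide as a random block, and 3 to 5 with 1 array left out. The 31 and 28 calls of change with time were 3 and 1 without an age term, where the age difference counts as spread, and 19 in CD4 cells with a normexp background. Under that background the CD4 change of Hoxc9 turned to 0.20 at 12 h and 0.16 at 24 h, and the cause was not tested. The 2 related genes called for age in CD4 cells were 0 with median scaling, 1 with normexp, 18 with slide as a block and 1 to 5 with 1 array left out. The 6 in CD8 cells were 2, 5, 16 and 3 to 9 in the same order. Under the replicate block these counts were 3 and 4, within 1.5 times of the main ones. Of the related genes called in CD8 cells, 9 were called without old CD4 replicate 3, and in CD4 cells 5 without young CD4 replicate 3. The mean signal is not held in 18 files, so normexp was run on median signals, an alternative chosen after seeing the data, as were the flagged spots, the series matrix times and the left-out CD4 pairs. Dim probes limit what the array can show: Hoxc9, Ripk4, Ryk and Mtus1 were below background on many young arrays.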
